A study of Homo sapiens with 12 samples.

Results

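The genes described here encode 8 receptors of the TNF superfamily other than TNF receptor 1, together with CASP8 and CFLAR, which encode the proteins that relay or block the signal of the death receptors. These 10 genes were taken by symbol out of 56634 genes in a bulk RNA sequencing study of HEK293, a human embryonic kidney line transformed with adenovirus DNA. All 10 symbols were found, and 9 passed the filter on low counts, which left 14822 genes to test. TNFRSF1B did not pass it.

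The study asked how inhibition of the Mediator kinases CDK8 and CDK19 alters gene expression with and without TNFα. It had 4 groups of 3 biological replicates. DMSO cells received 0.1% DMSO for 3 h, and SnxB cells received 1 µM Senexin B, the kinase inhibitor, for 3 h. TNF cells were kept in 0.1% DMSO for 1 h before TNFα was given at 10 ng/mL for 2 h. TNF_SnxB cells had 1 µM Senexin B for 1 h before TNFα at the same dose and time. No genotype was changed in any group, and all groups came from a single cell line, so the data describe that line only. The labels do not say whether the replicates came from separate passages or days, and p-values measure only the spread between these libraries.

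Receptors of this superfamily bind trimeric ligands at the cell surface. Those with a death domain in their cytoplasmic tail, such as FAS and the TRAIL receptors, recruit the adaptor FADD, which brings in procaspase-8 and can start apoptosis. Receptors without a death domain bind TRAF proteins and feed mainly into NF-kB and MAP kinase signalling. CFLAR (c-FLIP) resembles caspase-8 but has no protease activity, and it limits caspase-8 activation. In many cell types NF-kB raises transcription of CFLAR and of several receptor genes.

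Library totals ran from 8705277 to 50943310 counts, and TNF library 2 had 4.87 times the median depth of the rest. Levels are given as CPM, counts scaled to a common library size with TMM factors. The floor of detection was set at 3 counts in a library, which is 0.0595 to 0.342 CPM and covers counting error only. TNFα raised NFKBIA from 27.3 ± 1.94 to 271 ± 1.68 CPM (SD, n = 3 each), and Senexin B lowered MYC from 91.1 ± 4.00 to 18 ± 0.789 CPM (both called by edgeR). Of 7 markers of the line KRT8, KRT18, VIM, NEFL and INA were well expressed, while PAX2 and NEFM stayed at or below 1.33 CPM. Summed over the 7, the libraries ran from 829 to 851 CPM for DMSO, 862 to 875 for TNF, 754 to 796 for SnxB and 766 to 789 for TNF_SnxB, and the part of this in the results below was not tested. Of the markers of other cell types CD3E, CDH5 and DCN had 0 counts in all libraries, the leukocyte markers summed to at most 1.06 CPM, and COL1A1 was at 13.7 to 17.2 CPM. TNF_SnxB libraries 2 and 3 stood apart from library 1 of their group (chi-square per degree of freedom 5.79 and 5.52, against 1.07 to 1.59 between other replicates), and their levels fell with the GC content of the transcripts (Spearman -0.682 and -0.672 across genes, against 0.132 in library 1). The same correlation was 0.383, 0.436 and 0.375 in the TNF libraries and 0.184, 0.312 and -0.12 in DMSO, so the TNF libraries lay above the DMSO libraries too. Called member results that rest on the TNF_SnxB group are followed below by values without TNF_SnxB libraries 2 and 3.

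Per kilobase of exon, TNFRSF10B was the most abundant of the set in untreated cells. It encodes the TRAIL receptor DR5 and was at 22.6 ± 0.509 CPM per kb in DMSO (SD, n = 3). TNFRSF12A (Fn14), the receptor for TWEAK, followed at 19.6 ± 0.973 CPM per kb. TNFRSF21 (death receptor 6) and the TRAIL decoy receptor TNFRSF10D came next, at 10.0 ± 0.247 and 9.77 ± 0.719 CPM per kb, and their libraries overlapped. CASP8 at 7.41 ± 0.610 and FAS at 6.38 ± 0.609 CPM per kb overlapped as well. TNFRSF10A (DR4) was at 4.96 ± 0.194, CFLAR at 1.47 ± 0.124 and TNFRSF9 at 0.181 ± 0.0649 CPM per kb, each apart from its neighbours. In bulk RNA, fewer cells with a transcript and less of it per cell cannot be told apart. The CFLAR value is divided by 20637 bases of annotated exon, the union over all its transcripts, so it understates the level of the shorter ones. TNFRSF1A, the receptor through which soluble TNFα mainly signals, had 30.3 ± 1.12 CPM in DMSO, which is 10.2 CPM per kb.

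**Figure D1:**
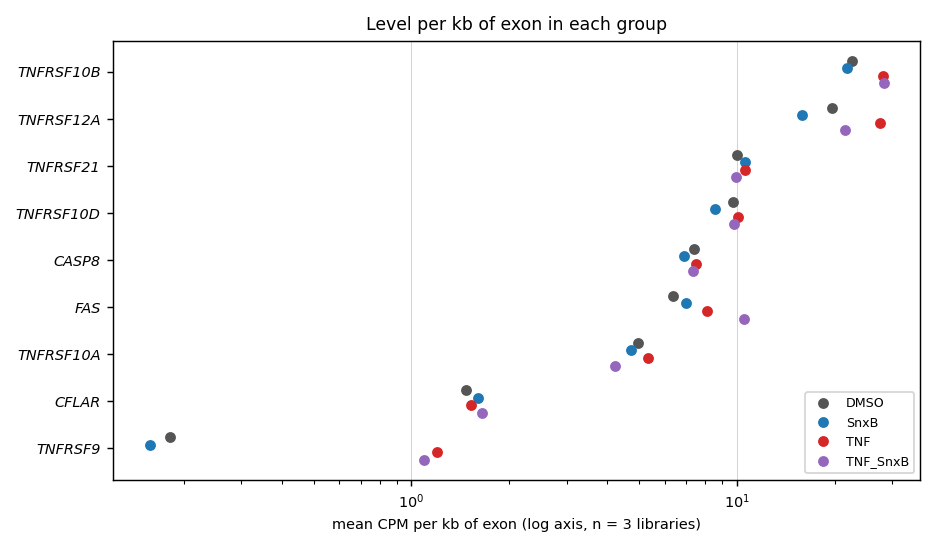
Mean CPM per kb of exon (x axis, log scale) of the 9 tested genes (y axis, ordered by the DMSO level) in the 4 groups, a point per group of n = 3 libraries. TNFRSF9 moves from 0.181 in DMSO to 1.2 in TNF, and FAS from 6.38 in DMSO to 10.5 in TNF_SnxB, and TNFRSF12A from 19.6 in DMSO to 27.6 in TNF.

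TNFRSF1B encodes TNF receptor 2. Its libraries held 0, 0 and 1 counts in DMSO, 1, 0 and 1 in SnxB, 0, 1 and 1 in TNF and 0, 1 and 0 in TNF_SnxB. All 12 values lie under the floor of 3 counts, so no fold is given. TNF receptor 2 transcripts were not detectable at this depth in any group.

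TNFα raised 4 of the 9 tested genes in cells without the inhibitor and lowered 0. These were TNFRSF9, TNFRSF12A, FAS and TNFRSF10B. Over all tested genes 1.43% were called higher, 0.594% lower and 2.02% in either direction in this comparison (edgeR quasi-likelihood test, Benjamini-Hochberg adjusted p under 0.05). The libraries of TNF and DMSO did not overlap for 5 of the 9 genes, against 20.2% of all tested genes. The median log2 fold change of the 9 was 0.08, and that of all tested genes was 0.00. The members were chosen with earlier results of these data known, so these counts do not test the set against all genes. Of 10 other tested receptors of the superfamily, edgeR called 0 in this comparison.

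TNFRSF9, known as CD137, is a costimulatory receptor best known from activated T cells. It lies on the minus strand of chromosome 1 at chr1:7915894-7943165 (GRCh38, GENCODE release 29). Its libraries were at 0.955, 1.52 and 0.776 CPM in DMSO, from 11, 15 and 9 counts. In TNF they were at 6.09, 7.42 and 7.92 CPM, from 55, 374 and 90 counts. Every TNF library was above every DMSO library. The rise was 6.81-fold, or 2.77 on the log2 scale (SE 0.198, adjusted p = 2.48e-11 by edgeR). The ligand gene TNFSF9 had 2.57 ± 0.443 CPM in DMSO and 2.50 ± 0.199 in TNF, a log2 difference of 0.02 (95% interval -0.40 to 0.44).

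The bases before the start of the member genes are shown because TNFRSF9 had the highest fold of the 9 and NF-kB and AP-1 are activated by TNFα. RefSeq promoter sequences (GRCh38.p14, from 250 bases before to 50 bases after each start) were matched for 6 of the 10 members, TNFRSF9, TNFRSF1B, FAS, TNFRSF21, CASP8 and CFLAR. The patterns were GGGA, any 4 bases and then CC, a loose form of the NF-kB site, and TGANTCA, a form of the AP-1 site, on both strands. Of 35116 promoters of that length 25.6% held the first and 7.71% the second. These shares count promoters and not genes, and FAS, CASP8 and CFLAR have 3, 3 and 4 starts. The NF-kB pattern was found only at the first listed start of FAS and CASP8, so a count of member genes is not comparable with these shares. For FAS, TNFRSF21 and CASP8 the NF-kB pattern matches only on the other strand, so the capitals show its reverse complement. AP-1 windows of CASP8 and CFLAR, described below, are not printed. Windows of 24 bases follow, 5′ to 3′ on the strand of the gene, with the match in capitals:
TNFRSF9, NF-kB pattern: tgtggtGGGAATTTCCCatgagac
TNFRSF9, AP-1 pattern: cccctggcTGAGTCAccgcactcc
FAS, NF-kB pattern: ccaacccGGGCGTTCCCcagcgag
FAS, AP-1 pattern: caagttgcTGAATCAatggagccc
TNFRSF21, NF-kB pattern: cacaaagGGCCGGTCCCccgcccc
CASP8, NF-kB pattern: acgaggaGGGCGTTCCCtggggag

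The TNFRSF9 windows are at chr1:7940896-7940919 and chr1:7940868-7940891 on the minus strand. The NF-kB pattern there runs from -74 to -64 relative to the start and matches on both strands, in 2 overlapping positions. The AP-1 pattern runs from -44 to -38. Both windows also lie wholly in annotated exon bases, within the annotated span of TNFRSF9. FAS has 3 annotated starts, and the matches precede the first of them in the table, at chr10:88990575-88990598 and chr10:88990548-88990571 on the plus strand. The TNFRSF21 window is at chr6:47309951-47309974 on the minus strand, and that of CASP8, before the first of its 3 starts, at chr2:201233379-201233402 on the plus strand. Each of the other CASP8 starts had 1 match of the AP-1 pattern, and CFLAR had it before 1 of 4 starts. Neither TNFRSF1B nor any CFLAR start had the NF-kB pattern in its window. TNFRSF21 and CASP8, which hold the NF-kB pattern, were not called with TNFα, and FAS, which holds it too, was called.

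TNFRSF12A is on chromosome 16 at chr16:3018445-3022383, plus strand. Its levels were 28.4, 25.8 and 27.8 CPM in DMSO and 40.4, 35.7 and 39.2 CPM in TNF. No TNF library was as low as any DMSO library. The rise was 1.37-fold (log2 0.46, SE 0.0803, edgeR adjusted p = 0.000521). After a correction of levels for GC content and transcript length it was log2 0.38 (edgeR adjusted p = 1.73e-05). All 4 genes raised by TNFα were still called after that correction. TNFSF12, the gene for the TNFRSF12A ligand TWEAK, was not called in any of the comparisons.

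Of the death receptors, TNFRSF10B and FAS rose and TNFRSF10A and TNFRSF21 were not called. The libraries of TNFRSF10B were at 93.9, 96.0 and 91.7 CPM in DMSO and at 114, 117 and 118 CPM in TNF. The groups did not overlap, and the rise was 1.25-fold (log2 0.32, SE 0.045, edgeR adjusted p = 2.4e-05). FAS, on chromosome 10 at chr10:88990582-89015785, plus strand, went from 14.8, 16.8 and 17.8 CPM to 21.1, 20.4 and 21.1 CPM. Its TNF libraries all lay above its DMSO libraries, at 1.26-fold (log2 0.33, SE 0.0835, adjusted p = 0.0274 by edgeR). The FAS call did not hold without DMSO library 1 (log2 0.26, adjusted p = 0.307), DMSO library 2 (0.35, 0.0736), TNF library 1 (0.32, 0.0806), TNF library 2 (0.36, 0.111) or TNF library 3 (0.32, 0.0913), nor in DESeq2 (0.34, 0.085).

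TNFRSF10A had 14.1, 13.1 and 13.3 CPM in DMSO and 15.5, 13.3 and 14.7 CPM in TNF, so that its groups overlapped. Its log2 difference was 0.06 with a 95% interval of -0.13 to 0.25. TNFRSF21 (chr6:47231532-47309905, minus strand) had 36.2, 36.8 and 35.1 CPM in DMSO and 38.0, 38.3 and 37.7 CPM in TNF. The TNFRSF21 groups did not overlap, but the log2 difference of 0.08 (95% interval -0.04 to 0.20, edgeR adjusted p = 0.729) was not called. TNFRSF10D, a TRAIL receptor with a truncated death domain that acts as a decoy, overlapped between the groups, with 34.6 ± 2.54 CPM in DMSO and 35.7 ± 1.89 CPM in TNF. TNFRSF10A, TNFRSF10B and TNFRSF10D lie within 205.0 kb on chromosome 8 and are related in sequence, so reads could be split between them in ways the counting settings, not given in the sources used here, would decide.

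CASP8, the initiator caspase, and CFLAR, its inhibitor, were not called. CASP8 had 29.5, 26.6 and 31.4 CPM in DMSO and 27.9, 30.0 and 30.5 CPM in TNF. CFLAR had 33.2, 28.7 and 28.9 CPM in DMSO and 31.7, 31.8 and 30.6 CPM in TNF. Groups overlapped for both. The log2 differences were 0.02 for CASP8 (95% interval -0.13 to 0.17) and 0.05 for CFLAR (-0.09 to 0.19). The FAS interval, 0.16 to 0.50, overlapped both, and a difference between these genes was not tested. The ratio of CASP8 to CFLAR counts was 0.888, 0.926 and 1.09 in the DMSO libraries and 0.881, 0.943 and 0.997 in the TNF libraries. The pair lies on chromosome 2, with CFLAR at chr2:201116104-201176687 and CASP8 at chr2:201233443-201287711, both on the plus strand and 56.8 kb apart, with CASP10 between them.

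**Figure D2:**
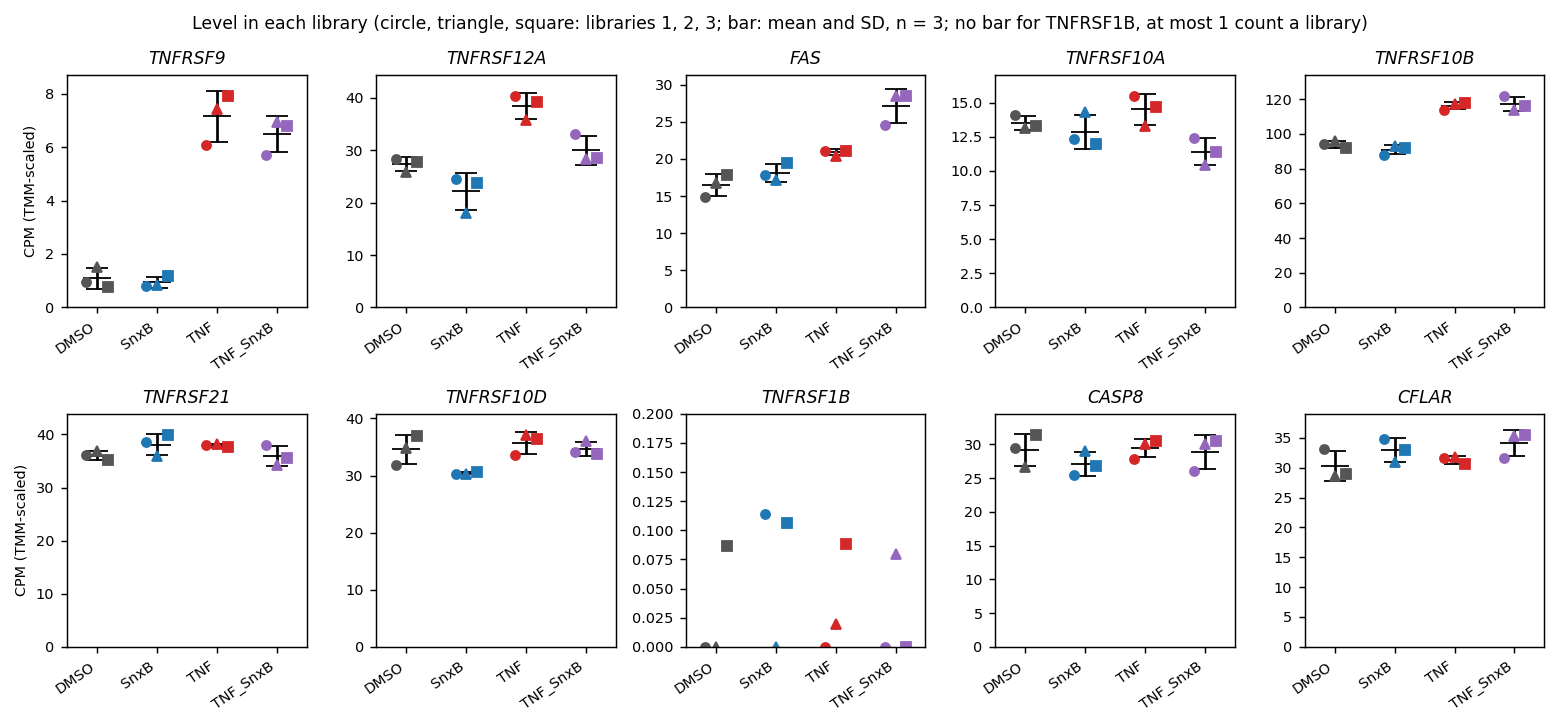
CPM (y axis, from 0) of the 10 genes in the 4 groups (x axis), a point per library, with the mean and SD of n = 3 libraries except for TNFRSF1B. TNFRSF9 has 1.08 CPM in DMSO and 0.938 in SnxB against 7.14 in TNF and 6.48 in TNF_SnxB, and FAS rises from 16.5 CPM in DMSO to 27.1 in TNF_SnxB.

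Senexin B alone gave no called change in the set. edgeR called 0 of the 9 tested genes in SnxB against DMSO, with 2 at an unadjusted p under 0.05, and DESeq2 called 0. Over all tested genes 2.03% were called in either direction, 0.344% higher and 1.69% lower. The libraries did not overlap for 2 of the 9, against 20.4% of all genes, and these were TNFRSF12A and TNFRSF10D.

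TNFRSF12A had 24.6, 18 and 23.8 CPM in SnxB, each below the DMSO libraries, with library 2 the lowest. The log2 difference was -0.32 (SE 0.0966, 95% interval -0.52 to -0.12, edgeR adjusted p = 0.0915). It was called without TNF_SnxB library 1, which enters only the estimate of the spread (adjusted p = 0.00483), without TNF_SnxB libraries 2 and 3 (0.00577), and after levels were corrected for GC content and transcript length (-0.34, 0.00564), among others. TNFRSF10D had 30.3, 30.3 and 30.6 CPM in SnxB against 31.9, 34.9 and 36.9 in DMSO, a log2 difference of -0.18 (95% interval -0.33 to -0.04, adjusted p = 0.249).

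For TNFRSF9 the level in SnxB, 0.798, 0.853 and 1.16 CPM, overlapped that in DMSO. With 27 counts in the group its interval was wide, from -0.89 to 0.54 on the log2 scale, and a moderate change in either direction was not detectable at this depth. Intervals were narrower for the more abundant genes. That of TNFRSF10B ran from -0.14 to 0.06, that of CASP8 from -0.27 to 0.06 and that of CFLAR from -0.04 to 0.27.

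With Senexin B present, TNFα raised TNFRSF9, TNFRSF12A, FAS and TNFRSF10B. In TNF_SnxB against SnxB edgeR called these 4 of 9 higher and 0 lower, while 7.38% of all tested genes were called higher, 6.83% lower and 14.2% in either direction. The libraries did not overlap for 5 of the 9 genes, against 22.7% of all. This comparison shares no library with TNF against DMSO. The median log2 fold change of the 9 was 0.19. Here too the members were chosen with earlier results known, so the counts do not test the set against all genes.

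TNFRSF9 reached 5.71, 6.94 and 6.79 CPM in TNF_SnxB, all above the SnxB libraries, a rise of 6.93-fold (log2 2.79, SE 0.230, edgeR adjusted p = 7.52e-10). TNFRSF10B reached 122, 114 and 116 CPM from 87.9, 93.0 and 92.0 in SnxB (log2 0.36, SE 0.047, adjusted p = 5.07e-06). Every TNF_SnxB library of TNFRSF10B was above every SnxB library. TNFRSF10A, TNFRSF21, CASP8 and CFLAR were not called, at log2 -0.18, -0.09, 0.10 and 0.06. Without TNF_SnxB libraries 2 and 3 they were at -0.06, 0.00, -0.06 and -0.05.

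TNFRSF12A reached 33.1, 28.3 and 28.5 CPM, above every SnxB library (log2 0.44, SE 0.0943, edgeR adjusted p = 0.00374). It was not called without SnxB library 2, its lowest value (log2 0.30, adjusted p = 0.0517). FAS reached 24.5, 28.4 and 28.5 CPM from 17.8, 17.1 and 19.4 in SnxB, 1.52-fold (log2 0.60, SE 0.0858, adjusted p = 2.49e-05). Without TNF_SnxB libraries 2 and 3 the rises of all 4 genes were still called, at log2 2.59 for TNFRSF9, 0.42 for TNFRSF10B and 0.59 for TNFRSF12A, with FAS at the highest adjusted p of its alternatives, 0.0378, and a log2 value of 0.44. TNFRSF10D was called higher only without TNF_SnxB library 1 (0.19, adjusted p = 0.0266), and with all libraries its adjusted p was 0.0703 and without libraries 2 and 3 it was 0.644.

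**Figure D3:**
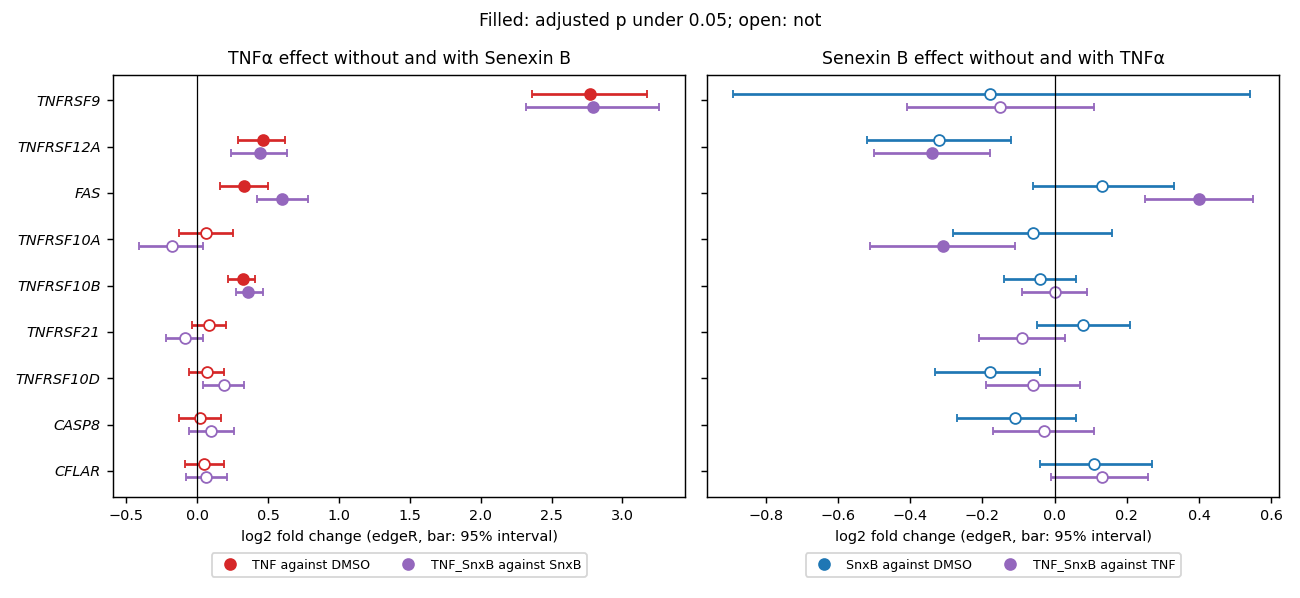
Log2 fold changes (x axis, with 95% intervals from edgeR) of the 9 tested genes (y axis), on the left for TNFα without and with Senexin B, on the right for Senexin B without and with TNFα, with filled points at an adjusted p under 0.05. The TNFα effects of TNFRSF9 are 2.77 and 2.79, and the Senexin B effects of TNFRSF12A are -0.32 and -0.34.

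The interaction tests whether the TNFα effect differed with and without the inhibitor. edgeR called 0 of the 9 genes, with 1 at an unadjusted p under 0.05, while 2.50% of all tested genes were called, 0.891% above and 1.61% below 0. DESeq2 called 0 as well but gave an adjusted p for only 1 of the 9.

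The 95% intervals below come from the fit of all 12 libraries. For TNFRSF10B the interaction was 0.05 with a 95% interval of -0.09 to 0.18. TNFRSF12A was at -0.02 (-0.28 to 0.23), CASP8 at 0.08 (-0.14 to 0.30) and CFLAR at 0.01 (-0.19 to 0.21). TNFRSF10A had the lowest value of the 9, -0.25 (-0.54 to 0.05), followed by TNFRSF21 at -0.17 (-0.35 to 0.01). TNFRSF10D was at 0.12 (-0.07 to 0.32). Without TNF_SnxB libraries 2 and 3 TNFRSF10A was at -0.10, TNFRSF21 at -0.08 and TNFRSF10D at 0.10. TNFRSF9 was at 0.02, but its interval ran from -0.70 to 0.75, since its levels without TNFα rest on few counts. FAS had the highest value of the 9 in the fit of all 12 libraries, 0.27 (0.02 to 0.52, edgeR adjusted p = 0.176). It was called without TNF_SnxB library 1 (0.33, adjusted p = 0.0204), and was 0.11 (adjusted p = 0.932) without libraries 2 and 3. Without those libraries TNFRSF12A was at 0.15, TNFRSF10B at 0.10, TNFRSF9 at -0.18, CASP8 at -0.09 and CFLAR at -0.11, so that all of these but TNFRSF10B changed sign. After the GC and length correction TNFRSF12A was at 0.24, above its interval in the fit of all libraries. FAS was then at 0.13, below TNFRSF12A, with TNFRSF10B at 0.10, TNFRSF9 at -0.06, CASP8 at -0.03 and CFLAR at -0.05. TNFRSF10A was at -0.18, TNFRSF21 at -0.13 and TNFRSF10D at 0.08. No member was called in either alternative.

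Among cells given TNFα, Senexin B went with higher FAS and with lower TNFRSF12A and TNFRSF10A. These were the 3 of 9 genes called in TNF_SnxB against TNF, 1 higher and 2 lower. Since 27.2% of all tested genes were called in this comparison, 13.3% higher and 13.9% lower, that count is near the background, and 32.1% of all genes had libraries that did not overlap, against 3 of the 9. Median transcript GC content was 42.0% for FAS, the lowest of the 9 tested members, and 64.2% for TNFRSF12A, the highest of them. It was 53.5% for TNFRSF10A. CASP8 at 44.0% and TNFRSF10B at 53.7% were near FAS and TNFRSF10A in GC content but were not called. A relation of these differences to GC content was not tested.

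FAS libraries were at 21.1, 20.4 and 21.1 CPM in TNF and at 24.5, 28.4 and 28.5 CPM in TNF_SnxB. Every TNF_SnxB library was higher, with library 1 the closest to TNF. The log2 difference was 0.40 (SE 0.0749, edgeR adjusted p = 0.000365). It was 0.27 and still called after the GC and length correction (adjusted p = 0.00235), and 0.24 and not called without TNF_SnxB libraries 2 and 3 (0.316).

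TNFRSF12A stood at 33.1, 28.3 and 28.5 CPM in TNF_SnxB, below the 40.4, 35.7 and 39.2 CPM of TNF. Its log2 difference of -0.34 (SE 0.0781, edgeR adjusted p = 0.00218) shrank to -0.09 after the correction (adjusted p = 0.377) and to -0.17 without TNF_SnxB libraries 2 and 3 (0.49), and neither was called.

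TNFRSF10A had 12.4, 10.4 and 11.4 CPM in TNF_SnxB, under the 15.5, 13.3 and 14.7 CPM of TNF. Its log2 difference was -0.31 (SE 0.096, edgeR adjusted p = 0.0177). The call was lost after the correction (-0.24, adjusted p = 0.0746), without TNF_SnxB libraries 2 and 3 (-0.16, 0.712), and without TNF library 1 (-0.27, 0.0589), TNF library 3 (-0.29, 0.0523), TNF_SnxB library 2 (-0.25, 0.125) or TNF_SnxB library 3 (-0.31, 0.0656). TNFRSF10A made up 9.49%, 7.91% and 8.68% of the summed counts of the TRAIL receptor genes TNFRSF10A, TNFRSF10B and TNFRSF10D in TNF, and 7.36%, 6.52% and 7.10% in TNF_SnxB. The share of the decoy TNFRSF10D was 20.5%, 22.1% and 21.5% in TNF and 20.3%, 22.4% and 20.9% in TNF_SnxB. It thus overlapped between TNF and TNF_SnxB. In DMSO the TNFRSF10D share was 22.8%, 24.3% and 26%, above every TNF library, and in SnxB it was 23.2%, 22% and 22.7%, overlapping TNF_SnxB. TNFRSF10C is not part of these sums.

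The remaining genes were not called. TNFRSF9 was 7.14 ± 0.946 CPM in TNF and 6.48 ± 0.673 CPM in TNF_SnxB (SD, n = 3 each), a log2 difference of -0.15 with an interval of -0.41 to 0.11, and -0.36 (edgeR adjusted p = 0.495) without TNF_SnxB libraries 2 and 3. TNFRSF10B was at 117 ± 2.04 and 117 ± 4.19 CPM, with an interval of -0.09 to 0.09, and a log2 difference of 0.06 without them. CFLAR had 31.7, 35.3 and 35.5 CPM in TNF_SnxB, and its difference of 0.13 (-0.01 to 0.26) was called only without TNF_SnxB library 1 (0.16, adjusted p = 0.0262) and was 0.01 without libraries 2 and 3. CASP8 had 26.0, 30.1 and 30.5 CPM, and TNFRSF21 38.0, 34.2 and 35.5 CPM, overlapping TNF in both cases. Without libraries 2 and 3 their log2 differences were -0.19 and -0.01. TNFRSF10D was at -0.06 (95% interval -0.19 to 0.07), and at -0.09 without those libraries.

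**Figure D4:**
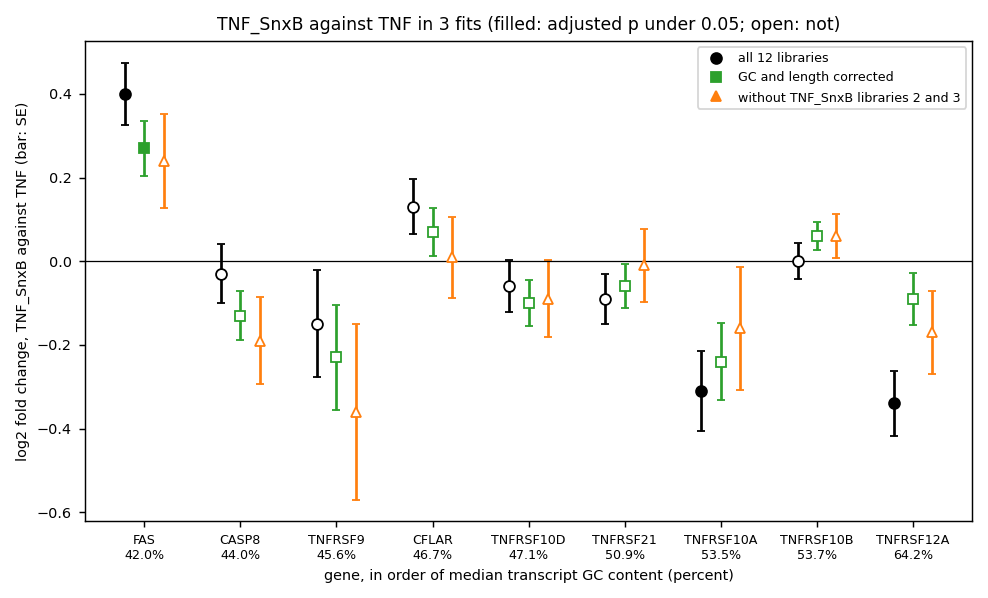
Log2 difference between TNF_SnxB and TNF (y axis, with SE) of the 9 tested genes, ordered by median transcript GC content (x axis), with all 12 libraries, after the GC and length correction, and without TNF_SnxB libraries 2 and 3. FAS goes from 0.40 to 0.27 and 0.24, and TNFRSF12A from -0.34 to -0.09 and -0.17.

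Of 21 other receptors of the superfamily, 10 passed the filter and 3 had no count in any library. None of the 10 was called with TNFα (edgeR 0 of 10, with 1 at an unadjusted p under 0.05 without the inhibitor and 1 with it). Per kilobase of exon TNFRSF1A led this list in DMSO at 10.2 ± 0.376 CPM per kb, followed by RELT at 4.88 ± 0.402 and TNFRSF11A (RANK) at 2.82 ± 0.169 CPM per kb. TNFRSF1A went from 30.3 ± 1.12 CPM in DMSO to 30.5 ± 0.606 CPM in TNF (log2 0.01, 95% interval -0.13 to 0.16). It was the 1 called gene of this list in TNF_SnxB against TNF, where it fell by 0.21 on the log2 scale (edgeR adjusted p = 0.0274). That difference was 0.00 without TNF_SnxB libraries 2 and 3 (adjusted p = 0.995) and -0.11 after the GC and length correction (0.264). It was not called without TNF library 1 (0.0503), 2 (0.163) or 3 (0.0507) or without TNF_SnxB library 2 (0.153) or 3 (0.213), nor in DESeq2 (0.0747).

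Few ligand genes of the family were expressed. Of 18, 6 passed the filter, 4 had no count in any library, among them FASLG, and edgeR called 0 of the 6 in any comparison, with 0 at an unadjusted p under 0.05. TNFSF10 (TRAIL) had 12 counts over the DMSO group, 3 in SnxB, 10 in TNF and 12 in TNF_SnxB. TNF itself did not pass the filter and is named after its values were seen. It had 1 count over the DMSO group, 0 in SnxB, 73 in TNF and 20 in TNF_SnxB, or 1.04 ± 0.175 CPM in TNF and 0.582 ± 0.161 CPM in TNF_SnxB.

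Of 18 genes of death receptor signalling downstream of the receptors, 17 were tested. TNFα without the inhibitor changed 0 of the 17 by edgeR, with 2 at an unadjusted p under 0.05. RIPK1, the kinase that joins TNF receptor 1 to NF-kB and to cell death, was the 1 gene called in SnxB against DMSO, where it fell by 0.28 on the log2 scale (adjusted p = 0.025). That call was lost without any 1 of the DMSO libraries or SnxB libraries 2 or 3, with adjusted p up to 0.235. In TNF_SnxB against TNF 1 of the 17 was higher, CASP8AP2, and 3 were lower, FADD, BID and RIPK1. With 27.2% of all tested genes called in this comparison, 4 of 17 is not above the background. CASP8AP2 and RIPK1 were not called in 7 and 11 of their alternatives, among them the fit without TNF_SnxB libraries 2 and 3. In TNF_SnxB against SnxB CASP8AP2 was among the genes called higher (log2 0.21, edgeR adjusted p = 0.0227), and FADD was called lower, while 14.2% of all tested genes were called. The CASP8AP2 call was lost after the GC and length correction (0.06, adjusted p = 0.62), without TNF_SnxB libraries 2 and 3 (0.12, 0.685) and with only the groups compared (0.0845). It was also lost without SnxB library 1 (0.129) or 3 (0.0816) and without TNF_SnxB library 2 (0.169) or 3 (0.0616).

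FADD, the adaptor between death receptors and caspase-8, had the strongest of these differences. It was at 19.2 ± 1.84 CPM for DMSO and 22.3 ± 1.69 for TNF without the inhibitor, and at 21.2 ± 1.85 for SnxB and 16.2 ± 1.01 for TNF_SnxB with it (SD, n = 3 each). It fell by 0.42 on the log2 scale in TNF_SnxB against TNF (SE 0.087, edgeR adjusted p = 0.000955) and by 0.39 against SnxB (0.00963). After the GC and length correction the first was -0.26 and still called (adjusted p = 0.0197), and without TNF_SnxB libraries 2 and 3 it was -0.34 and not called (0.165). The second was not called after the correction (-0.27, 0.0676), without those libraries (-0.33, 0.363), or without SnxB library 1 (0.0522), SnxB library 2 (0.0586) or TNF_SnxB library 2 (0.0691). BID, which links caspase-8 to mitochondria, fell by 0.22 in TNF_SnxB against TNF (edgeR adjusted p = 0.00327). That difference was -0.15 and still called after the GC and length correction (adjusted p = 0.0115). Without TNF_SnxB libraries 2 and 3, which leaves only library 1 in that group, it was -0.10 and not called. In TNF_SnxB against SnxB BID was not called (-0.13, adjusted p = 0.121). CASP10, a relative of CASP8, was at 6.19 ± 0.869 CPM in DMSO and 7.43 ± 0.528 in TNF and was not called.

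For each called member the 2 genes of at least 1 CPM whose log2 CPM ran most closely with it over the 12 libraries were found among 14133. These correlations are descriptions, and the points share library effects. TNFRSF9 ran most closely with RELB (Pearson 0.984) and TNFAIP3 (0.983), which encode an NF-kB subunit and the NF-kB feedback regulator A20. TNFRSF10B ran with CRIM1 (0.992) and EFNA1 (0.984), and TNFRSF12A with BMP2 (0.938) and EPHA2 (0.935). FAS ran with SRSF12 (0.961) and WDR26 (0.96), and TNFRSF10A with MKNK2 (0.929) and TECPR1 (0.926).

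Exons of TNFRSF10B share 67 bases with RHOBTB2 on the other strand, and those of TNFRSF12A share 40 bases with CLDN6. The strand setting of the counting is not given in the sources used here, so reads from these bases cannot be assigned. Over all libraries RHOBTB2 had 1630 counts and CLDN6 42. CFLAR shares 1488 bases with the pseudogene IMPDH1P10, which had 0 counts, and 96 with CFLAR-AS1, which had 5.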

How the data were processed

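The deposited values are raw counts for each gene symbol in 12 libraries, neither normalized nor pooled by the authors. The submitters' processing notes name featureCounts of Subread 1.4.6, STAR 2.4, SAMtools 1.2 and the build hg38 (GRCh38). The sources used here do not give the annotation, strand setting or read length.

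After filterByExpr and TMM scaling, group means of all 12 libraries were fitted by the quasi-likelihood method of edgeR. The Benjamini-Hochberg adjustment covered all 14822 tested genes, with calls at an adjusted p under 0.05. Intervals are 95% intervals of this fit. Tools were R 4.3.3, edgeR 4.0.16, DESeq2 1.42.0 and Python 3.11.15. The script was tested on simulated data. Positions, exon lengths and GC content came from GENCODE release 29, with GC matched by symbol for 90.8% of tested genes. The correction for GC content and length used offsets per library from a loess fit.

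The members and lists were chosen with earlier results of these data known. All 10 members are named, with TNFRSF1A, FADD, CASP10, TNFSF9 and TNFSF10, up to 4 called genes a list by adjusted p, NFKBIA, TNFAIP3 and MYC as treatment checks, and 2 most correlated genes per called member. Alternatives were median-of-ratios size factors, DESeq2, no filter, the replicate number as a block, the correction, only the groups compared, a minimum fold of 1.5, and leaving out libraries. The values of 1 called gene of the signalling list are not reported here.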

Additional observations from a re-analysis of the deposited data

Results flagged for a closer look

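The TNFα effect on FADD differed with and without Senexin B. It was 0.18 on the log2 scale without the inhibitor and -0.39 with it, an interaction of -0.57 (SE 0.129, edgeR adjusted p = 0.0282, n = 3 libraries a group). It was -0.41 (adjusted p = 0.123) after the GC and length correction and -0.49 (0.327) without TNF_SnxB libraries 2 and 3, and over the single libraries left out it ran from -0.67 to -0.49, always below 0 but called only without TNF_SnxB library 1 or DMSO library 2.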

How the results depend on the processing

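Of the 9 tested members, 4 were called in TNF against DMSO, 0 in SnxB against DMSO, 3 in TNF_SnxB against TNF, 4 in TNF_SnxB against SnxB and 0 in the interaction. Leaving out 1 library gave 3 to 4, 0 to 1, 2 to 4, 3 to 5 and 0 to 1. In SnxB against DMSO 1 member, TNFRSF12A, was called with no filter, with the GC and length correction, with only the groups compared and without TNF_SnxB libraries 2 and 3. In TNF_SnxB against TNF 1 was called with the correction and 0 without those libraries. With a fold of at least 1.5 the counts were 1, 0, 0, 2 and 0. DESeq2 gave TNFRSF9 no adjusted p in TNF_SnxB against TNF or SnxB. With the replicate number as a block 1 member was called in SnxB against DMSO, and the other counts stayed at 4, 3, 4 and 0. The numbers did not pair the libraries: deviations of same-numbered libraries correlated at -0.0402 to 0.0941 in 18 pairs, and 3 of 12 libraries correlated best with their own number. CASP8AP2 in TNF_SnxB against TNF went from 0.18 to -0.02 with the correction. No member call changed direction. Over all genes the calls depended on the TNF_SnxB libraries: the 300 of TNF against DMSO became 873 without library 1, 866 without libraries 2 and 3, 776 with only the groups compared, 549 with the correction and 177 without TNF library 2. The 301 of SnxB against DMSO became 883, 871, 735 and 712, the 4029 of TNF_SnxB against TNF 6784, 399, 2438 and 1869, the 2106 of TNF_SnxB against SnxB 5402, 217, 510 and 726, and the 370 of the interaction 4521, 17 and 50 (no fit of only the groups). With a fold of at least 1.5 these 5 counts were 97, 60, 193, 163 and 24. The interaction had 736 with the block, 711 with no filter and 3 to 11 without any 1 library other than DMSO 2 and TNF_SnxB 1. SnxB against DMSO had 171 to 200 without DMSO 1 or 3 or any SnxB library, TNF_SnxB against TNF 2487 without TNF 2 and 2016 and 1869 without TNF_SnxB 2 and 3 in turn, and TNF_SnxB against SnxB 503 to 1022 without any SnxB library or TNF_SnxB 2 or 3. The cause was not tested. Depth limits TNFRSF9 without TNFα (27 to 35 counts a group) and TNFRSF1B.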
